A study of Arabidopsis thaliana with 48 samples.

Results

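Ascorbate peroxidases, catalases and superoxide dismutases are the enzymes that remove superoxide and hydrogen peroxide in plant cells, and 10 of their genes in Arabidopsis thaliana are described here out of 27420 genes counted. They were taken by locus, with earlier results of these data known: the cytosolic ascorbate peroxidases APX1 (AT1G07890) and APX2 (AT3G09640), the chloroplast ascorbate peroxidases SAPX (AT4G08390) and TAPX (AT1G77490), the catalases CAT1 (AT1G20630), CAT2 (AT4G35090) and CAT3 (AT1G20620), the copper/zinc superoxide dismutases CSD1 (AT1G08830) and CSD2 (AT2G28190), and the iron superoxide dismutase FSD1 (AT4G25100). All 10 passed the filter on low counts, which kept 17981 genes. RNA was sequenced from nuclei and from cytoplasm, separated by centrifugation, of rosettes of 14-day-old plants grown in long days. Plants of the tho5ab double mutant and of the wild-type accession Col-0 were either heated at 37 °C for 3 h with no recovery or kept at 21 °C. THO5A and THO5B encode subunit 5 of the THO complex, which joins transcription to the export of messenger RNA, and the study asked how export behaves in the mutant under heat. Each of the 8 groups, tho5ab at 37 °C and 21 °C and Col-0 at 37 °C and 21 °C in either fraction, had 6 libraries. The label of the source material reads seedling, and the labels do not say whether replicates came from separate plantings, so p-values measure the spread between these samples.

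Superoxide dismutases turn superoxide into hydrogen peroxide, which ascorbate peroxidases reduce to water with ascorbate as the electron donor and which catalases split in peroxisomes. CAT2 is the main catalase of photosynthesising leaf cells and removes peroxide made by photorespiration, APX2 is a long-known heat-induced gene and target of heat shock factors, and CSD1, CSD2 and their copper chaperone CCS are targets of the microRNA miR398, which is raised when copper is short while FSD1 takes over part of their work. In bulk samples like these, fewer cells of a type and less RNA per cell cannot be told apart.

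Among the 10 genes, APX2 alone was at or close to 0 at 21 °C and abundant at 37 °C, and its sequence is shown next to that of APX1, its nearest relative here, which was present at both temperatures. The 250 bases before the annotated start of each gene are given 5′ to 3′ on the plus strand from the RefSeq assembly TAIR10.1, chr3:2955906-2956155 for APX2 and chr1:2437031-2437280 for APX1. Capitals mark matches to paired heat shock element units, GAANNTTC or TTCNNGAA.
APX2: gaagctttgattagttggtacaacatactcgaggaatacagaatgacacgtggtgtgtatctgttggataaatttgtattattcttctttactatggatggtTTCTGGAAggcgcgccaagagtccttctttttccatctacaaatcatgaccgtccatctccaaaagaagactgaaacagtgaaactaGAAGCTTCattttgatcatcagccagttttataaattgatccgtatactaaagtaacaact
APX1: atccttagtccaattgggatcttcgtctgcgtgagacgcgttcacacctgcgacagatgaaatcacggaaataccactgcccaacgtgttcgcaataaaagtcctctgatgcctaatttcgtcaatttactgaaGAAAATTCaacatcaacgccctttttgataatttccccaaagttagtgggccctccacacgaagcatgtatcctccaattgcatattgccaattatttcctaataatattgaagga
GAANNTTC lies at position −61 of APX2 and −116 of APX1, counted from the annotated start to the first letter of the match. TTCNNGAA lies at position −148 of APX2. Both motifs read the same on either strand. Over 27418 protein-coding genes, in windows of 300 bases that run from 250 before to 50 after the start, 11.6% held GAANNTTC, 9.16% held TTCNNGAA and 1.48% held both. APX2 was the only one of the 10 genes with both, while CAT1, CAT2 and CAT3 held TTCNNGAA alone. The form with 3 units, searched on both strands, was in 0.481% of the windows and in 0 of the 10.

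The sequences given for the copper/zinc group are those of miR398 and of the sites that best match it. MIR398 genes are not in the count table, so the microRNA itself was not analysed here. Its 3p forms are given in DNA letters, with the seed, bases 2 to 8, in capitals. All 3 share 1 seed, and miR398c-3p is identical to miR398b-3p. On the plus strands of TAIR10.1 they lie at chr2:1041012-1041032 for miR398a-3p, chr5:4691107-4691127 for miR398b-3p and chr5:4694778-4694798 for miR398c-3p.
miR398a-3p: tGTGTTCTcaggtcacccctt
miR398b-3p: tGTGTTCTcaggtcacccctg
In the sites below, in transcript orientation, capitals mark letters that pair with miR398a-3p.
CSD1: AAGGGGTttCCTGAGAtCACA
CSD2: AtGcGGGTGACCTGgGAAACA
CCS: AttGGGaGACCTGgGAACAC
The CSD1 site lies in the 5′ UTR and is split by an intron (TAIR10.1, chromosome 1, 2827177 to 2827685, plus strand). The CSD2 site (chromosome 2, 12015571 to 12015591, plus strand) and the CCS site (chromosome 1, 4267522 to 4267541, minus strand) lie in coding sequence. The CSD1 site was 3 edits, that is mismatched, added or missing letters, from a perfect partner, the CSD2 site 4 and the CCS site 5. A site within 3 edits was found in 0.0146% of 27419 transcripts, within 4 in 0.139% and within 5 in 2.39%. The other 8 genes had no site closer than 6 edits.

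Libraries held 2601946 to 19914838 counts in nuclei and 1025185 to 2174279 in cytoplasm. Levels below are CPM (counts scaled to a common library size) after scaling by the trimmed mean of M-values (TMM), with factors of 1.24 to 1.83 in nuclei and 0.454 to 0.794 in cytoplasm. Of the targeted genes, THO5B had 0 counts in all 12 tho5ab cytoplasmic libraries, and in nuclei it averaged 0.128 CPM in tho5ab and 4.83 in Col-0 at 37 °C, and 1.20 and 6.16 at 21 °C. For THO5B every tho5ab library lay below every Col-0 library of its fraction and temperature. THO5A in nuclei was lower in tho5ab at 37 °C, 39.8 ± 39.6 CPM against 185 ± 11.9 in Col-0, but higher at 21 °C, 98.5 ± 18.3 against 34.3 ± 2.55 (SD, n = 6 each), which goes against a loss of that transcript. The tho5ab nuclear library at 37 °C with replicate number 7 had the highest THO5A of its group, 118 CPM. In 16 of the 48 libraries, 1 to 3 in each group, antisense genes lying wholly inside another gene had raised counts relative to that gene; these are called the opposite-strand libraries. Leaf mesophyll markers (5 genes) summed to 1254 to 2262 CPM in nuclei and 12102 to 50703 in cytoplasm, and root markers (4 genes) to 5.47 to 16.3 and 13.8 to 81.2. No marker was at 0 throughout any group.

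**Figure D1:**
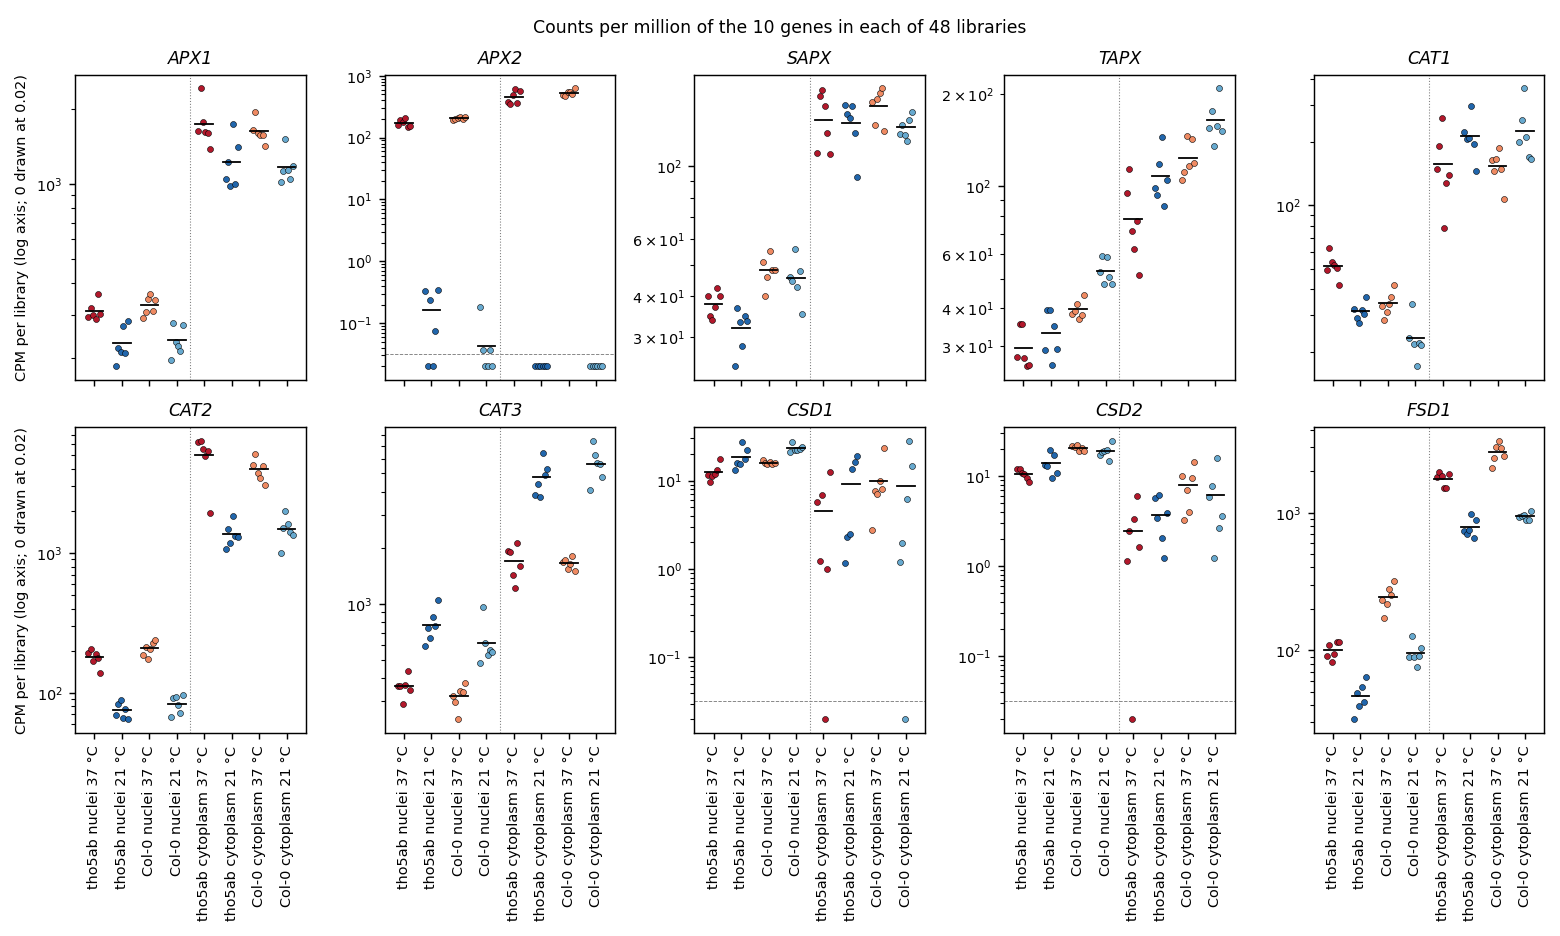
CPM of each gene (log axes, each panel on its own scale, 0 drawn at 0.02) in the 6 libraries of each of 8 groups, with nuclei left and cytoplasm right of the dotted line; points are libraries and bars are means. APX2 lies between 151 and 625 CPM in all heated libraries and at or below 0.339 CPM in all others, and CSD1 and CSD2 in cytoplasm spread widely at low counts.

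Heat changed most of the 10 genes in either genotype and fraction. By edgeR's quasi-likelihood test with Benjamini-Hochberg adjustment over all tested genes, 5 rose and 1 fell in tho5ab nuclei, where 52.1% of all tested genes changed (25.1% rose, 27.1% fell). In Col-0 nuclei 5 rose and 2 fell, against 45.7% of all genes (21.9% up, 23.8% down). In tho5ab cytoplasm 4 rose and 2 fell, against 42.1% (22.2% up, 20% down), and in Col-0 cytoplasm 4 rose and 3 fell, against 44.4% (24.7% up, 19.7% down). APX1, APX2, CAT2 and FSD1 rose in all 4 comparisons and CAT3 fell in all 4. Scaled by totals, the share of higher genes among all calls was 27.1% against 48.1% with TMM in tho5ab nuclei, 37.6% against 48.0% in Col-0 nuclei and 22.5% against 52.6% in tho5ab cytoplasm. Fold changes below are on the log2 scale, 37 °C over 21 °C, ± SE.

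APX2 (chromosome 3, 2956156 to 2958330, plus strand, 9 exons) rose the most. In cytoplasm the lowest, median and highest library had 356, 437 and 604 CPM in tho5ab at 37 °C and 471, 533 and 625 in Col-0 at 37 °C, against 0 counts in all 6 libraries of either genotype at 21 °C. In nuclei the values were 151, 170 and 207 CPM in tho5ab at 37 °C, against 0, 0.158 and 0.339 at 21 °C, and 192, 203 and 220 in Col-0 at 37 °C, against 0, 0.0184 and 0.181 at 21 °C. Every heated library lay far above every unheated one. Set against the floor that 3 counts over the group allow, which covers counting error only, the cytoplasmic mean was at least 903-fold higher in tho5ab and at least 1015-fold higher in Col-0. In nuclei the unheated groups rest on 11 counts in tho5ab and 6 in Col-0, 5 of their 12 libraries being at 0, and the fitted log2 change was 10.29 ± 0.34 in tho5ab (adjusted p = 5.7e-27) and 11.68 ± 0.35 in Col-0 (adjusted p = 6.9e-28), values that depend on the prior count.

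APX1 (chromosome 1, 2437281 to 2439665, plus strand, 9 exons), the cytosolic enzyme present without stress, rose by less. In nuclei its lowest, median and highest libraries had 289, 301 and 362 CPM in tho5ab at 37 °C, against 186, 216 and 284 at 21 °C. In Col-0 nuclei they had 290, 327 and 362 CPM at 37 °C, against 196, 230 and 277 at 21 °C. No heated nuclear library overlapped an unheated one of its genotype. In cytoplasm the groups overlapped, with 1375, 1629 and 2414 CPM in tho5ab at 37 °C, against 978, 1135 and 1732 at 21 °C, and 1424, 1586 and 1941 in Col-0 at 37 °C, against 1017, 1131 and 1509 at 21 °C. The log2 changes for nuclei were 0.44 ± 0.13 (tho5ab) and 0.47 ± 0.13 (Col-0), and for cytoplasm 0.50 ± 0.13 (tho5ab) and 0.48 ± 0.13 (Col-0) (adjusted p = 0.0045, 0.0028, 0.0018 and 0.0025). With DESeq2 size factors the APX1 change was smaller and did not pass in Col-0 cytoplasm (0.30, adjusted p = 0.063) or tho5ab nuclei (0.26, 0.097), where totals gave 0.04 (0.82). Fitted with only the 2 groups compared, it passed in neither cytoplasm (0.35 in tho5ab and 0.28 in Col-0, adjusted p = 0.11 and 0.079), and without the opposite-strand libraries it did not pass in tho5ab cytoplasm (0.34, 0.14). In tho5ab cytoplasm the direction depended on the scaling, at −0.07 (adjusted p = 0.7) when counts were scaled by library totals. That scaling moved the median of all genes there to −0.56. Relative to the median APX1 stood at 0.51 with TMM and 0.49 with totals, a value that scaling hardly changes by construction.

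Per kilobase of exon, heat brought APX2 close to APX1 in nuclei and left it below in cytoplasm. Here and below the length is that of all annotated exons merged, 1790 bases for APX1 and 1068 for APX2. The longest single transcript of APX1 has 1385 bases, and with that length the APX2 share would be lower. APX2 made up 48.3 ± 4.51% of the summed APX1 and APX2 level per kilobase in tho5ab nuclei and 51.5 ± 1.15% in Col-0 nuclei at 37 °C, and 31.2 ± 7.83% and 35.6 ± 4.47% in the 2 cytoplasms (SD, n = 6). Their longest aligned stretch is 72.8% identical over 746 bases. For each of the 10 genes, the longest match in another transcript was below 95% identity. Whether shorter stretches match more closely was not tested.

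The chloroplast pair moved little. SAPX (chromosome 4, 5314871 to 5317963, plus strand, 12 exons), the stromal enzyme that is also sent to mitochondria, passed the heat test in none of 4 comparisons (in tho5ab nuclei it did with those 2 groups fitted alone, 0.30, adjusted p = 0.023), with log2 changes of 0.25 ± 0.13, 0.08 ± 0.13, 0.04 ± 0.14 and 0.22 ± 0.13 (nuclei of tho5ab and Col-0, then cytoplasm of each; adjusted p = 0.1, 0.63, 0.85 and 0.18). Its direction in tho5ab cytoplasm turned to −0.53 (adjusted p = 0.001) under scaling by totals, where it stood at 0.03 relative to the median of all genes. TAPX (chromosome 1, 29117500 to 29121093, plus strand, 12 exons), bound to thylakoid membranes, fell in 3 of the 4. Its lowest, median and highest libraries were 36.9, 38.8 and 44.2 CPM in Col-0 nuclei at 37 °C, all below the 47.8, 51.5 and 59.5 at 21 °C. In cytoplasm it had 51.2, 74.2 and 114 CPM in tho5ab at 37 °C, against 86.3, 102 and 145 at 21 °C, and 105, 118 and 146 in Col-0 at 37 °C, against 136, 156 and 209 at 21 °C, with overlap in both. The log2 changes were −0.41 ± 0.14 in Col-0 nuclei, and for cytoplasm −0.46 ± 0.15 (tho5ab) and −0.41 ± 0.15 (Col-0) (adjusted p = 0.014, 0.014 and 0.02), and −0.17 ± 0.14 in tho5ab nuclei (adjusted p = 0.34), where it passed with DESeq2 size factors (−0.33, 0.038) and totals (−0.54, 5e-04). Each of the 3 calls was lost without 1 or more of the replicates and without the 16 opposite-strand libraries, where the adjusted p was 0.1 to 0.11.

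In cytoplasm the catalases exchanged rank with heat. CAT2 (chromosome 4, 16700312 to 16703504, minus strand, 7 exons) had 139, 183 and 207 CPM in tho5ab nuclei at 37 °C, against 64.7, 72.6 and 88.9 at 21 °C, and 175, 210 and 239 in Col-0 nuclei, against 67.1, 86.7 and 96.3. In cytoplasm it had 1924, 5485 and 6305 CPM in tho5ab at 37 °C, against 1074, 1315 and 1843 at 21 °C, and 3056, 3966 and 5132 in Col-0 at 37 °C, against 999, 1463 and 1982 at 21 °C. All heated libraries lay above all unheated ones in each pair. The log2 changes were 1.26 ± 0.17, 1.31 ± 0.17, 1.88 ± 0.17 and 1.42 ± 0.17, in the order tho5ab then Col-0 nuclei, tho5ab then Col-0 cytoplasm (adjusted p = 2.1e-08, 9.8e-09, 5.6e-13 and 1.4e-09). The lowest heated tho5ab cytoplasmic library, 1924 CPM, was replicate 7, and the next was at 4906.

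CAT3 (chromosome 1, 7142972 to 7146540, plus strand, 6 exons), a catalase under circadian control, moved the other way. It had 289, 362 and 436 CPM in tho5ab nuclei at 37 °C, against 594, 750 and 1045 at 21 °C, and 241, 329 and 375 in Col-0 nuclei at 37 °C, against 482, 561 and 957 at 21 °C. In cytoplasm it had 1221, 1753 and 2112 CPM in tho5ab at 37 °C, against 3728, 4659 and 6461 at 21 °C, and 1491, 1655 and 1804 in Col-0 at 37 °C, against 4071, 5666 and 7446 at 21 °C. No heated library reached an unheated one. Its log2 changes were −1.10 ± 0.15, −0.96 ± 0.15, −1.49 ± 0.16 and −1.78 ± 0.16 in the same order (adjusted p = 3.9e-08, 1e-06, 2.6e-11 and 1e-13).

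CAT1 (chromosome 1, 7146636 to 7150180, plus strand, 7 exons), a catalase best known from seeds and pollen, starts 95 bases after the end of CAT3 on the same strand, and its change with heat differed between the fractions. In nuclei it had 41.8, 51.1 and 62.9 CPM in tho5ab at 37 °C, against 27.7, 31.1 and 36.6 at 21 °C with no overlap, and 28.6, 33.7 and 42.0 in Col-0 at 37 °C, against 17.2, 22.1 and 34.1 at 21 °C with overlap. It rose by 0.72 ± 0.18 in tho5ab nuclei and 0.55 ± 0.18 in Col-0 nuclei (log2, adjusted p = 0.00091 and 0.013). In cytoplasm it had 77.8, 144 and 262 CPM in tho5ab at 37 °C, against 145, 207 and 297 at 21 °C, and 108, 156 and 187 in Col-0 at 37 °C, against 167, 206 and 360 at 21 °C. It fell in Col-0 cytoplasm, by 0.56 ± 0.19 (log2, adjusted p = 0.013), and stood at −0.42 ± 0.19 in tho5ab cytoplasm (adjusted p = 0.067). That change passed with DESeq2 size factors (−0.57, adjusted p = 0.015), with totals (−0.99, 9.9e-06), with only those 2 groups fitted (−0.59, 0.036), with a covariate for the opposite-strand libraries (−0.54, 0.013) and without replicate 4 (−0.58, 0.022). The nuclear calls were lost under scaling by totals (0.33 in tho5ab and 0.40 in Col-0, adjusted p = 0.1 and 0.057), and the Col-0 cytoplasmic call without replicate 3 (−0.40, 0.11) or 6 (−0.48, 0.052). The heat response differed between nuclei and cytoplasm by the interaction term of the same fit, by 1.15 ± 0.26 in tho5ab and 1.11 ± 0.26 in Col-0 (log2, nuclei minus cytoplasm, adjusted p = 0.0014 and 0.0022). This interaction was called for 17% of all genes in tho5ab (8.97% higher, 8.07% lower) and 16% in Col-0 (7.37% higher, 8.64% lower), and with totals 68.5% of the tho5ab calls were higher, against 52.6%. CAT3 also differed in Col-0, by 0.82 ± 0.22 (adjusted p = 0.0054), and the other 8 genes passed in neither genotype, although CAT2 did in tho5ab with DESeq2 size factors (−0.66, 0.045) and without the 2 libraries numbered 7 (−0.73, 0.0066).

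As a share of catalase counts per kilobase within each library, CAT2 made up 74.5 ± 9.17% in tho5ab cytoplasm at 37 °C, against 24.8 ± 1.89% at 21 °C, and 71.8 ± 2.81% in Col-0 cytoplasm, against 23.2 ± 2.58%. In nuclei its share was 33.3 ± 2.96% in tho5ab at 37 °C, against 10.3 ± 2.48% at 21 °C, and 40.7 ± 2.11% in Col-0, against 13.9 ± 2.30%. CAT3 was the leading catalase in heated nuclei all the same, with 54.7 ± 4.22% in tho5ab and 50.9 ± 2.16% in Col-0, while in heated cytoplasm it held 22.4 ± 8.30% and 24.7 ± 2.41%. At 21 °C it held 84.4 ± 2.88% (tho5ab) and 81.4 ± 2.27% (Col-0) in nuclei, and 70.3 ± 2.55% (tho5ab) and 72.4 ± 3.04% (Col-0) in cytoplasm. CAT1 held the least throughout, with 10.5 to 14.2% in heated tho5ab nuclei, 7.22 to 9.43% in heated Col-0 nuclei and at most 6.70% in any library of the other 6 groups (errors are SD, n = 6).

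**Figure D2:**
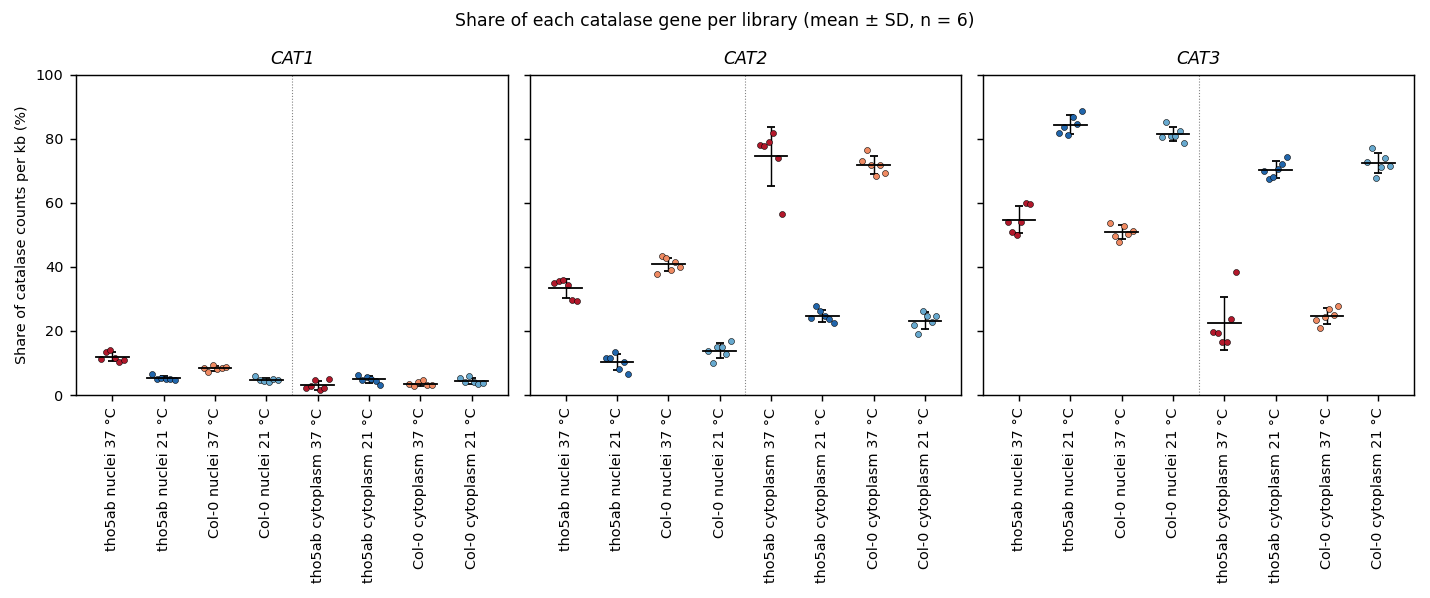
Share of the summed counts per kilobase of CAT1, CAT2 and CAT3 that each gene held (%), per library (points) with mean ± SD of 6 libraries, nuclei left and cytoplasm right of the dotted line. CAT2 averages 74.5% and 71.8% in heated tho5ab and Col-0 cytoplasm, and the lowest heated tho5ab library, replicate 7, is at 56.5%.

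FSD1 (chromosome 4, 12884300 to 12887011, minus strand, 8 exons) rose with heat, and CSD1 and CSD2 did not pass in any of 4 comparisons in the main fit. In nuclei FSD1 had 81.7, 102 and 115 CPM in tho5ab at 37 °C, against 31.6, 45.4 and 64.5 at 21 °C, and 172, 244 and 321 in Col-0 at 37 °C, against 75.7, 90.6 and 127 at 21 °C. In cytoplasm it had 1509, 1823 and 1982 CPM in tho5ab at 37 °C, against 655, 743 and 980 at 21 °C, and 2131, 2773 and 3309 in Col-0 at 37 °C, against 886, 942 and 1034 at 21 °C. Heated libraries lay above unheated ones in each pair, with log2 changes of 1.11 ± 0.14, 1.36 ± 0.14, 1.17 ± 0.14 and 1.54 ± 0.14 (adjusted p = 5.5e-09, 2.9e-11, 2.5e-09 and 7.2e-13, same order). Of the superoxide dismutase level per kilobase of FSD1, CSD1 and CSD2, FSD1 made up 72.5 ± 2.55% in tho5ab nuclei at 37 °C, against 46.3 ± 5.09% at 21 °C, and 80.2 ± 3.76% in Col-0 nuclei, against 57.9 ± 3.36%.

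CSD1 (chromosome 1, 2827060 to 2829315, plus strand, 8 exons), the cytosolic copper/zinc enzyme, had 9.66, 11.6 and 17.4 CPM in tho5ab nuclei at 37 °C, against 13.1, 16.8 and 27.1 at 21 °C, and 15.4, 15.9 and 17.1 in Col-0 nuclei at 37 °C, all below the 20.9, 22.4 and 27.2 at 21 °C. The Col-0 nuclear change of CSD1, −0.53 ± 0.39 (adjusted p = 0.27), passed when those 2 groups were fitted alone (−0.42, adjusted p = 0.00035), as did that in tho5ab nuclei (−0.50, 0.022), and with totals the tho5ab nuclear changes of CSD1 (−0.95, 0.043) and CSD2 (−0.76, 0.015) and the tho5ab cytoplasmic change of CSD1 (−1.44, 0.049) passed. CSD2 (chromosome 2, 12014412 to 12016569, plus strand, 8 exons), its chloroplast counterpart, had 8.64, 10.7 and 12.2 CPM in tho5ab nuclei at 37 °C, against 9.52, 13.2 and 19.5 at 21 °C, and 19.3, 20.8 and 22.1 in Col-0 nuclei, against 14.8, 19.0 and 24.6. In cytoplasm these 2 genes had few counts, 28 and 60 for CSD1 and 13 and 22 for CSD2 over the 6 tho5ab libraries at 37 °C and 21 °C, and 62 and 55, and 53 and 34, in Col-0. Their cytoplasmic changes with heat, −0.94 and 0.07 for CSD1 and −0.63 and 0.40 for CSD2 in tho5ab and Col-0, are therefore loosely bounded. The CSD2 change in Col-0 cytoplasm passed without replicate 4 (1.1, adjusted p = 0.027). In tho5ab nuclei the CSD2 change, −0.39 ± 0.27 (adjusted p = 0.23), passed by the DESeq2 Wald test (−0.57, 0.0017). CSD1 overlaps emb2411 on the opposite strand over 211 bases and CAT2 overlaps AT4G35080 over 95 bases, and whether the counting used strand is not given in the sources used here.

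In tho5ab against Col-0, the 10 genes, like all tested genes, differed at fewer points in cytoplasm than in nuclei. Most of those of the 10 that passed were lower in the mutant. At 37 °C in nuclei 1 was higher and 4 lower, while 34.4% of all tested genes differed (18.5% higher, 15.9% lower). At 21 °C in nuclei 0 were higher and 3 lower, against 21.5% (12.7% higher, 8.8% lower). In cytoplasm 3 were lower at 37 °C, against 14.1% (6.37% higher, 7.71% lower), and 1 was lower at 21 °C, against 3.58% (1.61% higher, 1.97% lower). Without the 16 opposite-strand libraries these 4 counts were 3, 1, 3 and 0. Of all calls in nuclei at 37 °C 53.9% were higher, a share that was 42.8% with DESeq2 size factors and 28.9% with scaling by totals. With totals it was also 49.05% against 59.1% in nuclei at 21 °C, 13.2% against 45.2% in cytoplasm at 37 °C and 59.5% against 44.9% at 21 °C. Log2 fold changes in the next 3 paragraphs are tho5ab over Col-0.

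FSD1 was lower in tho5ab nuclei at both temperatures and in cytoplasm at 37 °C. In nuclei it stood at −1.28 ± 0.14 at 37 °C and −1.04 ± 0.14 at 21 °C (adjusted p = 2.4e-10 and 2e-07), and the libraries listed above do not overlap between genotypes at either temperature. In cytoplasm it stood at −0.64 ± 0.14 at 37 °C (adjusted p = 0.0013), again without overlap, and at −0.26 ± 0.14 at 21 °C (adjusted p = 0.31), with overlap. The deficit was larger in nuclei than in cytoplasm by the interaction term, −0.65 ± 0.20 at 37 °C and −0.77 ± 0.20 at 21 °C (adjusted p = 0.02 and 0.011). FSD1 was the only one of the 10 to pass in that test, although CAT2 also passed at 37 °C with DESeq2 size factors (−0.73, adjusted p = 0.028) and without the 2 tho5ab libraries numbered 7 (−0.67, 0.013). At 21 °C CAT3 passed with the covariate for the opposite-strand libraries (0.62, adjusted p = 0.028) and SAPX with DESeq2 size factors (−0.60, 0.038). The test called 14.7% of all genes at 37 °C (9.88% higher, 4.81% lower) and 6.4% at 21 °C (4.5% higher, 1.9% lower). The share of higher genes among those calls was 67.2% at 37 °C and 49.5% with DESeq2 size factors, and 70.3% at 21 °C and 48.0% with totals. The call at 37 °C was lost without replicate 1 (−0.56, adjusted p = 0.086), 4 (−0.53, 0.11) or 6 (−0.62, 0.051), and that at 21 °C without the opposite-strand libraries (−0.80, 0.085).

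TAPX was lower in tho5ab in all 4 comparisons, by log2 changes of −0.42 ± 0.14 and −0.67 ± 0.14 in nuclei at 37 °C and 21 °C and −0.66 ± 0.15 and −0.61 ± 0.15 in cytoplasm (adjusted p = 0.018, 0.00038, 0.0023 and 0.014). In nuclei at 21 °C it had 26, 32.2 and 39.5 CPM in tho5ab, against 47.8, 51.5 and 59.5 in Col-0, and at 37 °C 25.8, 27.6 and 35.5 in tho5ab, against 36.9, 38.8 and 44.2 in Col-0, with no overlap at either. Its cytoplasmic libraries overlapped at both temperatures. The TAPX call in nuclei at 37 °C was lost without replicate 1 (adjusted p = 0.056) or 6 (0.1), and that in cytoplasm at 21 °C without replicate 2 (0.051) and when those 2 groups were fitted alone (0.12). Without the 16 opposite-strand libraries TAPX passed in cytoplasm at 37 °C and in none of the other 3 (adjusted p = 0.06 and 0.051 in nuclei at 37 °C and 21 °C and 0.2 in cytoplasm at 21 °C). SAPX was lower in nuclei at both temperatures, at −0.34 ± 0.13 at 37 °C (33.8, 38.6 and 42.5 CPM in tho5ab against 40.1, 48.3 and 55.2 in Col-0) and −0.50 ± 0.13 at 21 °C (24.5, 33.6 and 36.9 against 35.4, 45.3 and 55.9), with adjusted p = 0.035 and 0.0029. Both ranges overlapped, and the call at 37 °C was lost without replicate 1, 2, 4 or 5 (adjusted p = 0.051 to 0.35) and with the replicate number as a block (−0.30, 0.083). Without the opposite-strand libraries SAPX passed at neither temperature (−0.34 and −0.44, adjusted p = 0.088 and 0.099). Its cytoplasmic differences were −0.15 at 37 °C and 0.03 at 21 °C, and the term for fraction did not pass at 21 °C (−0.54, adjusted p = 0.072), though it did with DESeq2 size factors (−0.60, 0.038). The longest aligned stretch of the pair is 80.5% identical over 814 bases.

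CSD2 was lower in tho5ab at 37 °C, at −0.95 ± 0.27 in nuclei with no overlap and at −1.72 ± 0.47 in cytoplasm with overlap (log2, adjusted p = 0.0051 and 0.0097). The cytoplasmic libraries had 0, 2.06 and 6.003 CPM in tho5ab and 3.27, 8.24 and 14.6 in Col-0, on 13 and 53 counts, and the call was lost without replicate 1 (−1.50, adjusted p = 0.064). At 21 °C the differences, −0.44 ± 0.27 in nuclei and −0.69 ± 0.45 in cytoplasm, did not pass (adjusted p = 0.27 and 0.43). The nuclear difference of CSD2 at 21 °C did pass by the DESeq2 Wald test (−0.49, adjusted p = 0.011). CAT1 was the one gene higher in tho5ab, at 0.59 ± 0.18 in nuclei at 37 °C (adjusted p = 0.0097), a call lost without replicate 2 (0.48, 0.068) and under scaling by totals (0.28, 0.19), and it stood at 0.41 ± 0.18 at 21 °C (adjusted p = 0.11). CAT2 in heated cytoplasm stood at 0.35 (adjusted p = 0.17), and without the 2 tho5ab libraries numbered 7 at 37 °C, left out after their values were seen, it was higher in tho5ab, at 0.52 (adjusted p = 0.0078). APX1, APX2, CAT3 and CSD1 passed in none of these comparisons in the main fit, and for APX2 at 37 °C the difference was −0.24 in nuclei (adjusted p = 0.34) and −0.21 in cytoplasm (adjusted p = 0.52). With only the 2 groups compared fitted, APX2 (−0.24, adjusted p = 0.021) and CSD1 (−0.35, 0.022) passed in nuclei at 37 °C, and CAT1 (0.45, 0.014) in nuclei at 21 °C. CAT3 passed in nuclei at 21 °C with the covariate for the opposite-strand libraries (0.38, adjusted p = 0.026) and without replicate 2 (0.50, 0.024). In nuclei at 37 °C APX2 passed by the DESeq2 Wald test (−0.37, adjusted p = 0.015). With totals APX1 (−0.38, adjusted p = 0.014), APX2 (−0.55, 0.034) and CAT2 (−0.52, 0.0034) passed there, and SAPX passed in cytoplasm at 37 °C (−0.48, 0.0071). In the main fit CAT2 in nuclei stood at −0.22 at 37 °C and −0.16 at 21 °C (adjusted p = 0.34 and 0.54).

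No gene of the 10 passed the test of whether heat acted differently in tho5ab and Col-0, in nuclei, where 3.69% of all genes did (2.51% higher, 1.18% lower), or in cytoplasm, where 4.02% did (1.84% higher, 2.19% lower). Before adjustment, edgeR gave 1 gene a p under 0.05, APX2 in nuclei (−1.39, adjusted p = 0.32), which rests on the few counts at 21 °C. DESeq2 called 0 as well. In cytoplasm CAT2 passed without replicate 7 (0.64, adjusted p = 0.049) and without the 2 tho5ab libraries numbered 7 at 37 °C (0.63, 0.041). With totals FSD1 (−0.75, adjusted p = 0.019) and SAPX (−0.58, 0.038) passed in cytoplasm. Of all calls in nuclei 68.0% were higher, 55.9% with DESeq2 size factors and 30.1% with totals, and in cytoplasm 45.6%, 8.68% with totals. Errors were large for the low cytoplasmic genes, such as CSD2, at −1.03 ± 0.67.

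Marker sums moved with the genotype in nuclei, where most of these differences lay. Guard cell markers (3 genes) summed to 181 to 250 CPM in tho5ab and 86.2 to 145 in Col-0 at 37 °C, and to 217 to 454 and 132 to 185 at 21 °C. Phloem companion cell markers (3 genes) summed to 59.7 to 69.9 CPM in tho5ab and 81.8 to 96.0 in Col-0 at 37 °C, and to 79.4 to 95.1 and 99.2 to 139 at 21 °C. Neither list overlapped between genotypes, and leaf mesophyll markers, 1254 to 1517 CPM in tho5ab and 1837 to 2262 in Col-0, did not overlap at 21 °C but did at 37 °C. The part of these shifts in the results was not tested.

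**Figure D3:**
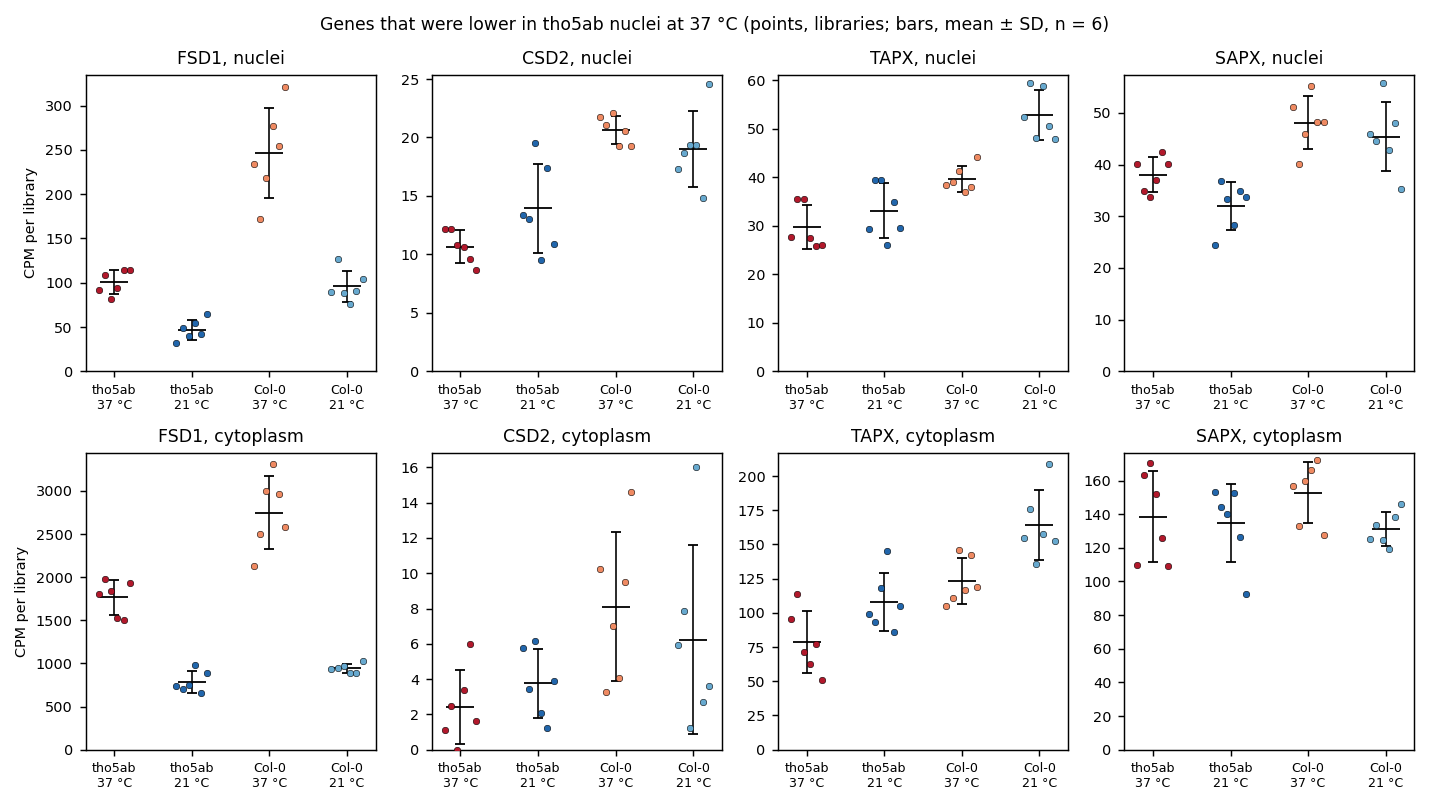
CPM (linear axes from 0) of FSD1, CSD2, TAPX and SAPX in nuclei (top) and cytoplasm (bottom), per library (points) with mean ± SD of 6 libraries, tho5ab left and Col-0 right. In nuclei at 37 °C FSD1, CSD2 and TAPX of tho5ab lie wholly below Col-0, while the SAPX ranges overlap.

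Between fractions, 7 of the 10 transcripts were lower in nuclei than in cytoplasm in all 4 comparisons, and APX2 was at 37 °C. The other way round lay CSD2 in all 4 and CSD1 in 2, with CSD1 not passing in the other 2. Outside the 10, the copper/zinc superoxide dismutase CSD3 was also higher in nuclei in all 4. APX6, listed with the other ascorbate peroxidases, was higher in all but tho5ab at 21 °C. In tho5ab 2 genes were higher and 8 lower in nuclei at 37 °C, and 1 and 7 at 21 °C, while 63.9% (37% higher, 26.9% lower) and 67.9% (40.5%, 27.4%) of all genes differed. In Col-0 1 was higher and 8 lower at 37 °C, and 2 and 7 at 21 °C, against 61.6% (32.6%, 28.9%) and 67% (38.9%, 28%). The median log2 difference, nuclei over cytoplasm, was −1.74 and −2.24 for the 10 genes in tho5ab at 37 °C and 21 °C and −1.91 and −1.97 in Col-0, and 0.42, 0.48, 0.24 and 0.42 for all genes. A difference here is a difference in each gene's part of its fraction's RNA, and the spike-in RNA that the labels mention was not used here. It shifts as a whole with the scaling, and the median of all genes in Col-0 at 21 °C was 0.42 with TMM, 0.85 with DESeq2 size factors and 1.76 with library totals. Higher genes made up 58.1% of calls in Col-0 at 21 °C and 53.0% at 37 °C with TMM, 68.3% and 68.1% with size factors, and with totals 82.2 to 85.0% over the 4 comparisons. Scaling shifts all genes of a comparison almost alike, so values relative to that median hardly change by construction. In Col-0 at 21 °C they were −1.95, −1.96 and −1.96 for SAPX and −3.72, −3.73 and −3.72 for FSD1.

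CAT2 and FSD1 were the lowest in nuclei, with log2 differences of −4.82 and −4.13 in tho5ab at 37 °C, against −4.25 and −3.48 in Col-0, and of −4.19 and −4.07 in tho5ab at 21 °C, against −4.14 and −3.30 in Col-0. CAT3 lay between −2.24 and −3.19, CAT1 between −1.61 and −3.27, APX1 between −2.31 and −2.48, SAPX between −1.53 and −2.07 and TAPX between −1.40 and −1.70. None of these 7 overlapped between fractions in any group. APX2 could be placed at 37 °C alone, at −1.41 in tho5ab and −1.37 in Col-0 (adjusted p = 4.8e-08 and 7.8e-08), while APX1 lay at −2.48 and −2.32. Scaled by totals, the APX2 differences were −0.07 in tho5ab and −0.02 in Col-0 and no longer passed, nor did TAPX (−0.01) and CAT1 (−0.23) in tho5ab at 37 °C or SAPX (−0.20, adjusted p = 0.16) in Col-0 at 21 °C. Relative to the median of all genes, which moves with the scaling, those of APX2 were −1.83 and −1.61 with TMM and −1.85 and −1.61 with totals.

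CSD2 was higher in nuclei in all 4, by 2.13 ± 0.42 and 1.89 ± 0.38 in tho5ab at 37 °C and 21 °C and by 1.36 ± 0.32 and 1.64 ± 0.35 in Col-0 (log2, adjusted p = 2.1e-05, 2.1e-05, 3e-04 and 4.9e-05). CSD1 was higher in nuclei in tho5ab at 37 °C, by 1.32 ± 0.53, and in Col-0 at 21 °C, by 1.34 ± 0.47 (adjusted p = 0.026 and 0.011), and stood at 0.94 ± 0.47 in tho5ab at 21 °C and 0.74 ± 0.46 in Col-0 at 37 °C (adjusted p = 0.069 and 0.16). The CSD1 call in Col-0 at 21 °C was lost without replicate 2 (1.08, adjusted p = 0.059) and without the opposite-strand libraries (1.13, 0.056), and that in tho5ab at 37 °C without replicate 2, 5 or 6 in tho5ab at 37 °C (1.08 to 1.20, adjusted p = 0.058 to 0.091). The other pair passed with DESeq2 size factors, at 1.35 in tho5ab at 21 °C and 1.23 in Col-0 at 37 °C (adjusted p = 0.0084 and 0.016). Relative to the median of all genes, CSD1 stood 0.46 to 0.92 above and CSD2 1.12 to 1.71 above. CCS, the copper chaperone with the third miR398 site, was higher in nuclei by 4.06 and 3.19 in tho5ab at 37 °C and 21 °C and by 3.25 and 4.37 in Col-0. The peroxisomal copper/zinc enzyme CSD3 was also higher in nuclei in each, by 1.08, 1.14, 1.76 and 0.78.

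**Figure D4:**
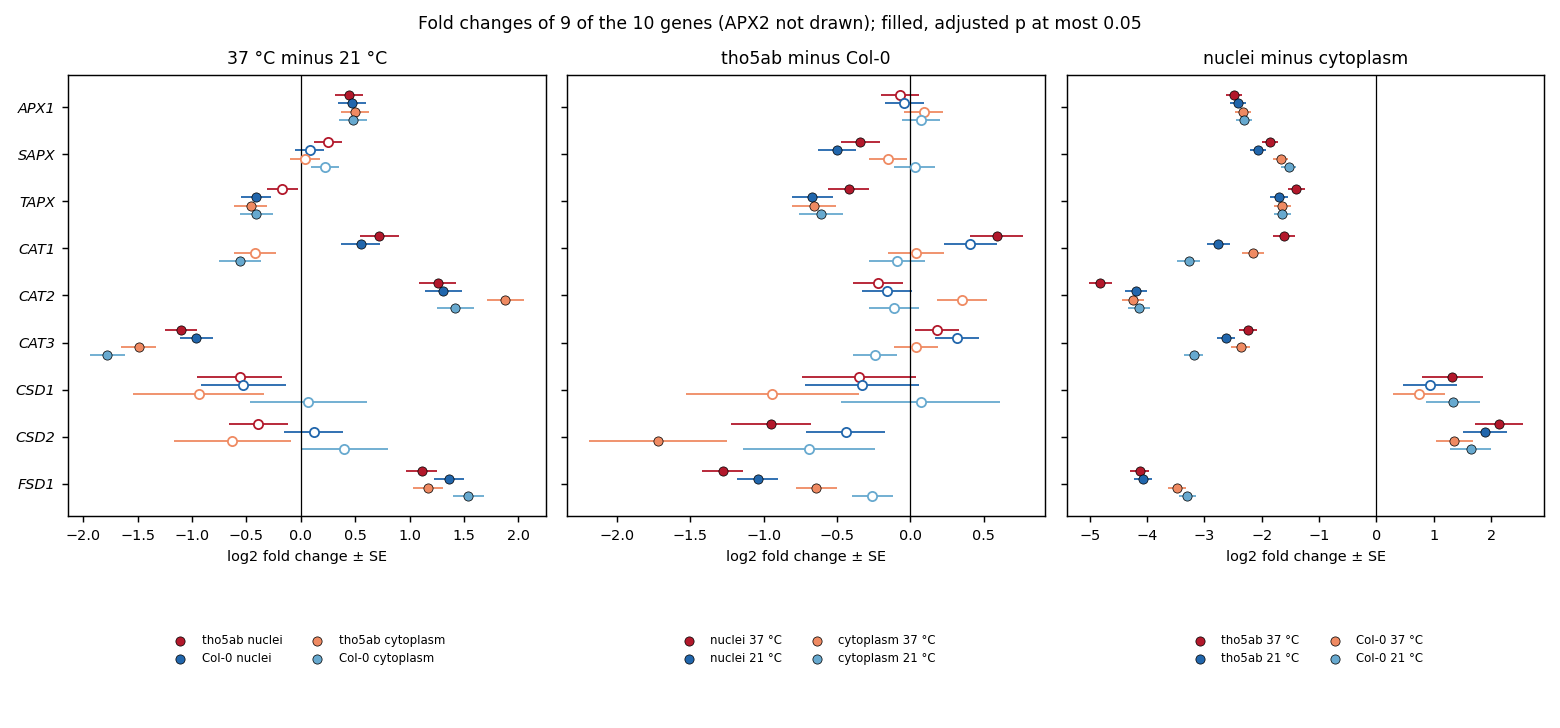
Log2 fold changes ± SE of 9 genes (APX2 is left out, being at or near 0 at 21 °C) for 37 °C minus 21 °C, tho5ab minus Col-0, and nuclei minus cytoplasm, by edgeR with TMM scaling; filled points have an adjusted p of at most 0.05. CAT1 falls on opposite sides of 0 in nuclei and cytoplasm under heat, CSD1 and CSD2 alone are right of 0 in the fraction panel, and APX1 and SAPX in tho5ab cytoplasm under heat turn to −0.07 and −0.53 when scaled by totals.

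A fixed list of 45 other genes of the same network, of which 41 were tested, moved both ways with heat. In nuclei 15 rose and 13 fell in tho5ab, while 25.1% of all genes rose and 27.1% fell, and 11 and 12 in Col-0, beside 21.9% and 23.8%. In cytoplasm 13 rose and 10 fell in tho5ab, beside 22.2% and 20% of all genes, and 10 and 13 in Col-0, beside 24.7% and 19.7%. The medians in this order were 0.19, 0.07, 0.01 and −0.07 beside −0.07, −0.06, −0.01 and 0.07 for all genes. Of 7 genes for the synthesis of ascorbate and glutathione, 0 rose and 5, 4, 4 and 5 fell, listed here and below for nuclei (tho5ab, Col-0) and then cytoplasm (tho5ab, Col-0). GSH2, glutathione synthetase, fell by 1.36, 1.29, 2.02 and 2.57 on the log2 scale. In the recycling group of 10 genes, MDAR6, a monodehydroascorbate reductase, fell by 1.35, 1.12, 1.56 and 1.79, while GR, the organellar glutathione reductase, rose by 0.68 and 0.64 in tho5ab and Col-0 nuclei. Among 12 glutathione peroxidases and peroxiredoxins 5, 6, 4 and 3 rose and 3, 2, 2 and 3 fell. TPX1, a cytosolic thioredoxin-dependent peroxidase, rose by 2.45, 2.51, 2.81 and 2.40, while GPX6 was among those that fell in each comparison. Of the superoxide dismutases outside the 10, FSD2, an iron enzyme of chloroplast nucleoids, fell by 1.19, 0.65, 1.93 and 1.83, opposite to FSD1, and CSD3 rose in nuclei by 1.36 and 1.40. HSFA2, the heat shock factor that binds the APX2 promoter, rose by 9.42 and 6.79 in tho5ab and Col-0 nuclei and by 11.26 and 8.01 in cytoplasm. Its rise differed between genotypes by the interaction test in nuclei. In cytoplasm HSFA2 did not pass that test, so the gap between the 2 cytoplasmic values is not established.

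Against Col-0, 4 of the 41 network genes were higher and 17 lower in tho5ab nuclei at 37 °C, while 18.5% of all genes were higher and 15.9% lower. At 21 °C 1 was higher and 13 lower in nuclei, beside 12.7% and 8.8% of all genes. The medians were −0.35 and −0.32, against −0.08 and −0.03 for all genes. In cytoplasm 5 were higher and 2 lower at 37 °C (6.37% and 7.71% of all genes), and 0 and 2 at 21 °C (1.61% and 1.97%). The lower ones in nuclei at 37 °C and 21 °C included FSD2 (−1.32 and −0.77), TL29, a thylakoid lumen relative of ascorbate peroxidases (−1.34 and −0.92), 2-Cys Prx B, a chloroplast peroxiredoxin (−0.98 and −0.75), and GR (−0.88 and −0.93). PRXQ, another chloroplast peroxiredoxin, stood at −1.07 and −0.37, and GSH2 at −0.91 and −0.85. HSFA2 was higher in tho5ab nuclei at 37 °C, by 2.51 ± 0.26 (adjusted p = 1.8e-11), where APX2 stood at −0.24. CCS, which delivers copper to CSD1 and CSD2, was higher there by 0.74 (adjusted p = 0.025). The difference between genotypes was lower in nuclei than in cytoplasm at 37 °C for 8 of the 41 and higher for 2, MDAR4 and HSFA2 (named after their values were seen), while 4.81% of all genes were lower and 9.88% higher in that test, and at 21 °C 0 of the 41 passed, beside 6.4% of all genes.

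The genes whose log2 CPM tracked each of the 10 most closely over the 48 libraries are given as a description, since all pairs share the step between fractions and the depths. APX2 ran closest with ATHSP22.0, a small heat shock protein (Pearson r = 0.995), and AT5G48570, a heat-induced peptidyl-prolyl isomerase (0.986). FSD1 ran with 2-Cys Prx B (0.983) and AT5G03545 (0.981), CAT2 with AOR, an alkenal reductase of chloroplasts (0.99), and FTSH8, a thylakoid protease (0.987), and CAT3 with AT1G13930 (0.984) and AT4G40030, a histone 3.3 (0.978). APX1 ran with ACT7, an actin (0.991), and ACD1, pheophorbide a oxygenase (0.988), SAPX with AT5G19940 (0.978) and PSAH2 of photosystem I (0.975), TAPX with CA2, a carbonic anhydrase (0.964), and AT1G21500 (0.956), and CAT1 with AT3G13120 (0.98) and YLMG1-2 (0.973). The closest partners of CSD1 (AT4G14520, 0.823; QQT1, 0.817) and CSD2 (AT3G12020, 0.873; UMAMIT41, 0.835) were less close, at their lower counts.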

How the data were processed

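The deposited values are whole-number read counts per gene for 48 libraries. Per the labels' protocols, RNeasy Plant Mini columns gave the RNA, ERCC spike-in was added, and the NuGEN Universal Plus RNA-Seq kit was used with rRNA depletion. The submitters' processing notes name STAR 2.7.8a, Picard, UMI-tools, featureCounts and TAIR10; order, strand and multi-mapping settings are not given in the sources used here. From the deposited counts, edgeR 4.0.16 in R 4.3.3 (filterByExpr, TMM, quasi-likelihood F test, 1 mean per group over all 48 libraries, 18 contrasts) was run on 17981 genes with Benjamini-Hochberg adjustment at 0.05, and the code was tested on simulated data. SE is the absolute log2 fold change divided by the square root of F, an approximation, and log2 levels used a prior count of 2. Sequences and positions come from RefSeq TAIR10.1, whose nuclear chromosomes match TAIR10. Sites were sought with edlib 1.3.9.post1 and copies with blastn 2.17.0. Alternatives were DESeq2 1.42.0 size factors and Wald test, fits to the compared groups alone, no low-count filter, a replicate block, a covariate for or removal of the opposite-strand libraries, removal of each replicate number, and, added after seeing the data, removal of the 2 tho5ab libraries numbered 7 at 37 °C and scaling by total counts. Replicate numbers recur across groups, and samples were not paired in the main fit. Deviations of libraries with one number correlated at r = −0.40 to 0.46 over the comparisons. Between nuclei and cytoplasm r was −0.05 to 0.24. There the library of the same number was the closest in 4 of 6 pairs in tho5ab at 37 °C and in 3 of 6 in each other comparison. The labels do not say whether fractions with one number share plants. Within groups, libraries correlated at 0.757 to 0.991 and none was identical to another. The genes and lists were chosen with earlier results of these data known. All 10 genes are described in every comparison, network genes by up to 2 highest and 2 lowest calls per list with further members where few passed, and genes of like pattern by the 2 highest Pearson correlations.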

Additional observations from a re-analysis of the deposited data

Results flagged for a closer look

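In 6 of 78 groups of 6 libraries, 1 library stood far from the others of its group by Dixon's test, and chance flags about 1 group in 20. In tho5ab cytoplasm at 37 °C, replicate 7 had 1924 CPM of CAT2, with the next library at 4906. In Col-0 nuclei at 21 °C, replicate 2 was highest for both tandem catalases, with 957.0 CPM of CAT3 (next 618) and 34.1 of CAT1 (next 23.4). In Col-0 nuclei at 21 °C, replicate 1 had 0.181 CPM of APX2 (next 0.037). In Col-0 cytoplasm, replicate 3 at 21 °C had 1509 CPM of APX1 (next 1176) and replicate 6 at 37 °C had 23.6 of CSD1 (next 9.75).

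Of 60 interaction tests on these genes 5 passed, all of them tests of a difference between fractions. Over all genes, genotype by fraction was called for 14.7% at 37 °C and 6.4% at 21 °C. Heat by fraction was called for 17% of all genes in tho5ab and 16% in Col-0. Genotype by heat, called for 3.69% in nuclei and 4.02% in cytoplasm, does not compare fractions. For FSD1 the difference between tho5ab and Col-0 was lower in nuclei than in cytoplasm by log2 −0.65 at 37 °C and −0.77 at 21 °C. For CAT1 the heat response was higher in nuclei than in cytoplasm by 1.15 in tho5ab and 1.11 in Col-0, and for CAT3 by 0.82 in Col-0.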

How the results depend on the processing

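Of 2866 values of single genes under the alternatives, 2744 kept their direction and side of the threshold, 64 passed newly, 56 no longer passed and 2 reversed. Both reversals came with scaling by total counts, for heat in tho5ab cytoplasm, where APX1 stood at −0.07 and SAPX at −0.53. Counts of the 10 genes that moved by over 1.5 times were these. For tho5ab against Col-0 in cytoplasm at 21 °C, 1 became 0 with only the groups compared and without the opposite-strand libraries. In nuclei, 5 at 37 °C became 3 without those libraries, and 3 at 21 °C became 1 without them and 5 with a covariate for them. For genotype by heat in cytoplasm, 0 became 1 without the 2 libraries numbered 7 and 2 with total counts. For genotype by fraction at 21 °C, 1 became 2 with DESeq2 size factors, its Wald test, the covariate and total counts, and 0 without the opposite-strand libraries. For genotype by fraction at 37 °C and for heat by fraction in tho5ab, 1 became 2 with DESeq2 size factors, its Wald test and without the libraries numbered 7, and heat by fraction also with the covariate. Without each replicate number in turn the counts ran, for heat, from 5 to 6 in tho5ab cytoplasm and 6 to 7 in tho5ab nuclei and in both fractions of Col-0. For genotype they ran from 2 to 4 and 0 to 1 in cytoplasm at 37 °C and 21 °C and 3 to 5 and 3 to 4 in nuclei. For fraction they ran from 9 to 10 at 37 °C and 8 to 9 at 21 °C in either genotype. For the interactions they ran from 0 to 1 and 0 to 0 (genotype by heat, cytoplasm and nuclei), 0 to 2 and 1 to 2 (genotype by fraction, 37 °C and 21 °C), and 1 to 2 and 2 to 2 (heat by fraction, tho5ab and Col-0). The replicate block changed 2 of 180 calls, SAPX for genotype in nuclei at 37 °C (−0.30, adjusted p = 0.083) and CSD1 for nuclei against cytoplasm in tho5ab at 21 °C (1.12, adjusted p = 0.027). The cause of these moves was not tested. Over all genes, the count of calls ranged over the alternatives from 3696 to 8812 (main 7574) for heat in tho5ab cytoplasm, 4807 to 9039 (7976) in Col-0 cytoplasm and 7217 to 13458 (8212) in Col-0 nuclei. For genotype it ranged from 1151 to 4078 (2533) and 80 to 1765 (644) in cytoplasm at 37 °C and 21 °C and 5151 to 11355 (6193) and 2726 to 8639 (3866) in nuclei. For genotype by heat it ranged from 124 to 1923 (723) in cytoplasm and 386 to 3795 (663) in nuclei, for genotype by fraction from 2096 to 4556 (2641) at 37 °C and 517 to 2616 (1151) at 21 °C, and for heat by fraction from 2215 to 4837 (3063) in tho5ab and 2032 to 4641 (2878) in Col-0. Depth limits CSD1, CSD2 and unheated APX2.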
